A study of Mus musculus with 12 samples.

Results

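Cluster 27 was one of 10 macrophage clusters among the cells of MC38 tumors, a transplanted mouse colon carcinoma. Its cells were those to which the authors' clustering gave the number 27, without a name, and it held 4115 of 93126 cells (4.42%), or 6.05% of the 68059 macrophages. It was the sixth largest macrophage cluster and was found in all 48 tumors, with 1 to 242 cells per tumor (median 80). The single tumor with most cells gave 5.88% of the cluster and the single library with most gave 13.5%, so neither 1 animal nor 1 library made up the cluster. What set the cluster apart was high RNA of hypoxia and glycolysis genes, of iron and metal binding proteins and of lipid-associated macrophage genes, beside RNA of MHC class II and interferon gamma genes below that of most other macrophage clusters.

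The tumors grew under the skin of female mice aged 8 to 12 weeks injected with MC38 cells. At 75 to 110 mm3 each mouse got a single intraperitoneal dose of 200 µg of an antibody against PD-1 (aPD1, clone 29F.1A12) or of isotype control (2A3), and the tumor was taken 48 h later. Each host was C57BL/6J (B6) or an F1 of B6 and a Collaborative Cross strain, an inbred line bred from several founders. The study classed F1 hosts of CC001/UncJ, CC002/UncJ and CC075/UncJ as responders to aPD1 and those of CC036/UncJ, CC079/TauUncJ and CC080/TauUncJ as non-responders, from tumor growth; B6 and CC007/UncJ F1 hosts were placed in neither class here. All hosts carried at least 1 B6 genome copy, all tumors came from the same implanted line, and class is a property of 3 strains against 3 strains. Frozen tumors were dissociated and sorted to 90% CD45+ and 10% CD45- cells, and 4 tumors carrying hashtag antibodies shared each of 12 libraries. Isotype and aPD1 tumors never carried the same hashtag, so hashtag and treatment cannot be told apart.

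Macrophages in poorly perfused tumor regions meet low oxygen, which stabilises hypoxia-inducible transcription factors. These factors raise glycolytic enzymes, the glucose transporter Slc2a1, the angiogenic factor Vegfa and mitophagy genes such as Bnip3. Macrophages that take up dying cells and lipid are known to raise Gpnmb, Fabp5, Trem2 and lysosomal genes, while interferon gamma from T and NK cells raises MHC class II genes and the chemokine Cxcl9.

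Counts of unique molecular identifiers (UMIs, each marking 1 captured transcript) were used. Total UMIs per tumor ran from 88816 to 17713491. Cells of cluster 27 had a median of 3763 UMIs and 1475 genes, against 3881 UMIs in cluster 2, 4383 in cluster 26 and 2599.5 in cluster 5, with a median mitochondrial share of 0.908%. Of all cells 10.9% had a barcode seen in 2 or more libraries (11.4% of cluster 27), and 14 barcodes stood on 2 or more cells of cluster 27. No doublet caller was run; 3.94% of the cells had over 3 times the cluster's median UMIs, against 6.30% of other macrophages measured the same way. In 3 tumors the cluster had under 20 cells, and values per tumor were taken over the other 45.

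The macrophage label was checked first. Lyz2 (lysozyme) stood at 5919 CPM, UMIs scaled to a total of 1000000 after summing over the cells of the cluster, and 92.4% of cells had a Lyz2 UMI. Csf1r, the receptor of the macrophage growth factor, stood at 302 CPM with a UMI in 60.1% of cells. That was the lowest Csf1r level of the 10 clusters, and the others ran from 311 to 524 CPM. Adgre1, the F4/80 antigen, stood at 133 CPM with a UMI in 34.7% of cells. In T and NK cells, which should lack these genes and had a median of 1918 UMIs, the shares were 15.6%, 2.69% and 1.43%. Cd68 was higher in cluster 27 (754 CPM) than in any of the other 9 clusters. The macrophage core list of 15 genes summed to 25970 CPM, rank 3 of the 10 clusters. Against the other macrophages of the same tumor, 5 of its genes were higher and 8 lower in at least 75% of tumors. Its sum was higher in 23 of 45 tumors. All 8 T and NK markers were under 10 CPM, and Cd3e or Trac UMIs were in 0.413% of its cells against 72.0% of T and NK cells. Marker sums of T and NK cells, B cells, migratory dendritic cells, fibroblasts, mast cells, red cells and MC38 or epithelial cells came to 0.700 to 10.9 CPM, and those of cDC2 and endothelial cells to 27.02 and 32.4 CPM. Granulocyte markers summed to 48.2 CPM (11.9 to 218 CPM in the other 9 clusters). cDC1 markers summed to 235 CPM (191 to 756 CPM elsewhere), of which Cadm1 gave 155 CPM and the defining genes Xcr1 and Clec9a 0.161 and 0.807 CPM. Markers of plasmacytoid dendritic cells summed to 585 CPM (338 to 1311 CPM elsewhere), of which Bst2 gave 470.4 and Tcf4 113 CPM, while Siglech and Klk1 were at 0.

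Genes of low oxygen and of metal handling were among the 20 leading genes of the cluster. The largest ratios were those of Gpnmb, Hspb1 and Cxcl3, ahead of Egln3. Promoters of 5 genes of low oxygen or metal handling are shown because they hold the sequence motifs known for these responses. Each window runs from 250 bases before to 50 after the start of the gene and comes from RefSeq (GRCm38.p6), read in the direction of the gene. In the first group, Egln3 (chr12:54203825-54204124, minus strand), Bnip3 (chr7:138909457-138909756, minus strand) and Ankrd37 (chr8:45999801-46000100, minus strand), capitals mark the core of the hypoxia response element, ACGTG or GCGTG on either strand.
Egln3: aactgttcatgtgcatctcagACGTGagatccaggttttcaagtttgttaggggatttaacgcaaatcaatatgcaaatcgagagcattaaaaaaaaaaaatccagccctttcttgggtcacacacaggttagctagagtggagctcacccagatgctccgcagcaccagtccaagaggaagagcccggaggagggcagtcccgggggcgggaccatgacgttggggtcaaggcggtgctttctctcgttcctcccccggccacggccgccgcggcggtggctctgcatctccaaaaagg
Bnip3: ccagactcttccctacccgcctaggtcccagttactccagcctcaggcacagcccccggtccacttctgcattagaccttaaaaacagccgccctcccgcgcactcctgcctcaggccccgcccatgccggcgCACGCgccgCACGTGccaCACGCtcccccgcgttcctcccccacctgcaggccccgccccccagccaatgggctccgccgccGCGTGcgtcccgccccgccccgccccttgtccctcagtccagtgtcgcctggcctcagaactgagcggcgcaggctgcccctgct
Ankrd37: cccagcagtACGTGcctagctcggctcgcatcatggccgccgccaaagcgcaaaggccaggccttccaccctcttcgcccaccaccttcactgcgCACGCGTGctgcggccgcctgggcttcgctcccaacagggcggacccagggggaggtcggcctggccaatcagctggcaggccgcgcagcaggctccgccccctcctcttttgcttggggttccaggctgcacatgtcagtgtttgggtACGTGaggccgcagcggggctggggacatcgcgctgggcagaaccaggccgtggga
In the second group, the metallothionein genes Mt1 (chr8:94178839-94179138, plus strand) and Mt2 (chr8:94172368-94172667, plus strand), capitals mark the core of the metal response element, TGCACNC or TGCGCNC on either strand.
Mt1: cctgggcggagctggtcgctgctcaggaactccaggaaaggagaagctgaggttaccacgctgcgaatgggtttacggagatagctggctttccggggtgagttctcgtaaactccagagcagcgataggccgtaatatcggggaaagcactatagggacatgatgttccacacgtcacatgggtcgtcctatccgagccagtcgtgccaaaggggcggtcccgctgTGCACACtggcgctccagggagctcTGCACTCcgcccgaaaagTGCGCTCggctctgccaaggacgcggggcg
Mt2: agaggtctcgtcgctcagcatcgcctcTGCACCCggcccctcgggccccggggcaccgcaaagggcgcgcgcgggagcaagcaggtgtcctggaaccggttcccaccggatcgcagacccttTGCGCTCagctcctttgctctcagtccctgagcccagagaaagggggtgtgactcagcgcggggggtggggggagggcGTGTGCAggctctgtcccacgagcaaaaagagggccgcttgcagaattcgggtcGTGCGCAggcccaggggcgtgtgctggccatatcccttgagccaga
The gene of largest ratio, Gpnmb (chr6:49036268-49036567, plus strand), is shown with 0 matches to the hypoxia core.
Gpnmb: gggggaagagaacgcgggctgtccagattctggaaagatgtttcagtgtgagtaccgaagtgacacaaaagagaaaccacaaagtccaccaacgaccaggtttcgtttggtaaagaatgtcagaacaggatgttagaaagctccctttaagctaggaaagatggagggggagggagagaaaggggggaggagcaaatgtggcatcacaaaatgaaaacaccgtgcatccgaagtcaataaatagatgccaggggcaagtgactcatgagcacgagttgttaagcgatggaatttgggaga
Windows were found for 16 of the 20 leading genes, and Ero1l, Ndrg1, Hmox1 and Fabp5 had none in the table. The hypoxia core was in 13 of their 21 windows (11 genes) and in 43.8% of all 32851 promoters. The metal core was in 8 of 21 windows (7 genes) and in 25.7% of all promoters. A match is a description of the letters and not evidence of binding.

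Genes were compared between cluster 27 and the other 9 macrophage clusters as a description, without a test, since the clustering itself used these genes. Among 8308 genes of at least 10 CPM, 12.1% were higher in cluster 27 than in the other macrophages of the same tumor in at least 75% of the 45 tumors, and 45.1% were lower in as many. The median gene had a log2 ratio of -0.33. Against that background, all 17 genes of the hypoxia and glycolysis list were higher in at least 75% of tumors, and none was lower in as many. For each of the 17 cluster 27 had the highest level of the 10 clusters, with a median log2 ratio of 1.65. Summed over the list, cluster 27 had 15682 CPM and the other clusters 3426 to 7206 CPM.

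Among sensors and signals of low oxygen, Egln3, an oxygen-dependent prolyl hydroxylase that is itself a hypoxia target (chromosome 12, 54178981 to 54203860), was 58.1, 165 and 359 CPM at the lowest, median and highest tumor. In the other macrophages of the same tumors it was 5.72, 13.7 and 44.7 CPM. The groups did not overlap for Egln3, and the level over all cells was 13.3 times the mean of the other clusters. Bnip3, which marks mitochondria for removal (chromosome 7, 138890836 to 138909519), was 362, 686 and 874 CPM against 66.6, 113 and 215 CPM. Every cluster 27 value of Bnip3 lay above every value of other macrophages, and the cluster level was 7.02 times the mean of the others. Ndrg1, a stress-responsive gene raised by hypoxia (chromosome 15, 66929318 to 66969640), was 133, 362 and 1065 CPM against 15.1, 49.3 and 219 CPM, so its groups overlapped while all 45 tumors were higher within themselves.

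Genes that act on blood vessels and glucose followed the same order. Vegfa, the vascular growth factor, was 190, 402 and 841 CPM in cluster 27 against 34.3, 107 and 354 CPM. Slc2a1, the main glucose transporter, was 143, 402 and 643 CPM against 48.8, 77.9 and 153 CPM, and both genes were higher in 45 of 45 tumors. Adm, the vasodilator peptide adrenomedullin, was at 34.4 CPM in cluster 27 and at 0.676 CPM in the mean of the others. The glycolytic enzymes moved less: the log2 ratio was 1.65 for Tpi1, 1.61 for Pgk1, 1.58 for Aldoa, 1.28 for Gapdh, 1.21 for Ldha and 1.01 for Pkm. Hilpda, which blocks lipid breakdown on lipid droplets, was 225, 553 and 1130 CPM against 19.03, 47.6 and 178 CPM and did not overlap. Ero1l, an oxidase of the endoplasmic reticulum, was 133, 509 and 934 CPM against 46.1, 66.1 and 105 CPM, again without overlap.

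**Figure D1:**
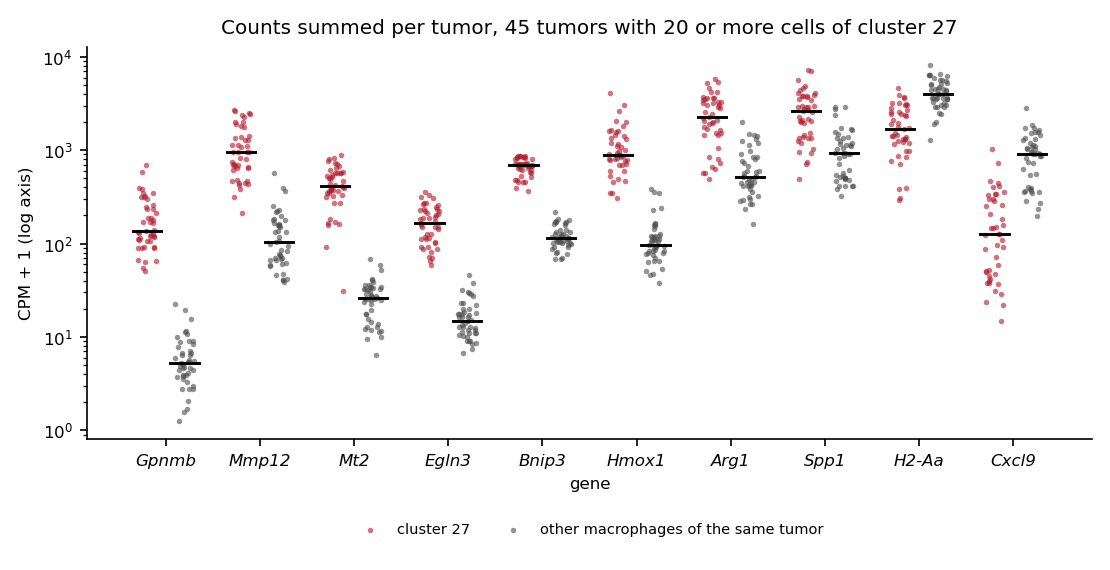
Each point is the summed level of a gene (x axis) in 1 of 45 tumors, as CPM + 1 on a log axis, in cluster 27 (red) or the other macrophages of that tumor (grey), with medians as bars. Bnip3 and Egln3 separate without overlap, whereas H2-Aa and Cxcl9 lie lower in cluster 27, with medians of 1684 against 3987 CPM and 125 against 920 CPM.

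Metal and oxidative stress genes formed the second group. Mt2 was 29.7, 414 and 894 CPM in cluster 27 against 5.44, 25.1 and 66.7 CPM, and Mt1 was 490.5, 3192 and 6716 CPM against 195, 521.5 and 1291 CPM; these metallothioneins bind zinc and copper. Both were higher in 45 of 45 tumors although their ranges overlapped. Hmox1, which degrades heme (chromosome 8, 75093621 to 75100589), was 305, 894 and 4115 CPM against 36.9, 95.5 and 380 CPM. Its ranges overlapped too, and cluster 9 had the second highest level, 854 CPM. The iron storage chains Fth1 and Ftl1 stood at 26579 and 12435 CPM, against highest levels of 11991 and 8363 CPM elsewhere. Of the 10 oxidative stress genes at 10 CPM or more, 6 were higher in at least 75% of tumors (Hmox1, Fth1, Ftl1, Srxn1, Prdx1 and Gclm). Txnrd1 and Gsr had log2 ratios of -0.14 and -0.28. The list summed to 42294 CPM in cluster 27 and to 6741 to 18894 CPM in the others, so Fth1 and Ftl1 made up most of the sum.

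Stress of protein folding was less uniform. Of 9 such genes 4 were higher in at least 75% of tumors: Trib3, Ddit3, Atf4 and Dnajb9, of which Ddit3 and Atf4 are transcription factors of the integrated stress response and were higher in 45 of 45 tumors. Sdf2l1 was lower in 42 tumors. The immediate early and heat shock list was divided, with 7 of 15 genes higher and 5 lower in at least 75% of tumors, a median log2 ratio of 0.07 and a summed level that was higher in 24 of 45 tumors. The immediate early genes Fos, Fosb, Junb, Egr1 and Ier2 were lower in 40 to 45 tumors. Among heat shock genes Hspa1b had 433 CPM against a mean of 119 CPM, Hspa1a 475 against 178 CPM and Hsp90aa1 645 against 400 CPM. Hspb1 had 79.3 against 3.37 CPM and was higher in 39 of 45 tumors.

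Lipid-associated genes made the third group, with 13 of 14 higher in at least 75% of tumors and Lpl lower in 35. Gpnmb, a glycoprotein of lipid-laden macrophages (chromosome 6, 49036546 to 49070929), had the largest ratio of all genes in the table that met the rule for leading genes, at 190.1 CPM against a mean of 6.68 CPM, or 24.9 times. It was 50.2, 134 and 701 CPM in cluster 27 and 0.250, 4.21 and 21.5 CPM in other macrophages, and the groups did not overlap. Fabp5, a fatty acid carrier, was 297, 707 and 1949 CPM against 50.03, 137 and 278 CPM, and also did not overlap. Spp1 (osteopontin) was 492.7, 2607 and 7220 CPM against 324, 925 and 2912 CPM, higher within each of 45 tumors with overlapping ranges. Trem2, the lipid receptor, was 415.5 CPM in cluster 27 and 415.4 CPM in cluster 26, and Apoe was higher in cluster 9 (9407 CPM) than in cluster 27 (5742 CPM). Of 15 lysosome genes 11 were higher in at least 75% of tumors and none was lower in as many. Ctsl, Ctsd, Ctsb and Cd68 were higher in all 45. The lysosome list summed to 14556 CPM, second to cluster 9 (15468 CPM).

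Among genes that remodel matrix, Mmp12, the macrophage elastase (chromosome 9, 7344381 to 7369499), was 213.5, 946 and 2712 CPM against 38.0, 104 and 562.5 CPM. Mmp13, a collagenase, was at 86.2 CPM against 9.66 CPM. Arg1, which degrades arginine, was 490, 2267 and 5815 CPM against 162, 514 and 1983 CPM. Mmp12 and Arg1 were higher in 45 of 45 tumors and Mmp13 in 44. The other genes of the arginine and repair list did not follow: Retnla was at 4.84 CPM against a mean of 195 CPM, which cluster 9 (1725 CPM) dominates, and Chil3, Mrc1 and Tgfbi were lower in 36, 34 and 45 tumors. Il7r, the interleukin 7 receptor, was 106, 282 and 609 CPM against 18.4, 52.8 and 219 CPM.

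Inflammatory genes were divided. Cxcl3, a neutrophil attractant, was at 186 CPM against 12.3 CPM, higher in 38 of 45 tumors, and ran from 0 to 1089 CPM between tumors. Nos2, which makes nitric oxide, was at 87.4 against 17.5 CPM and higher in 44. Il1b was at 248 against 924 CPM and lower in 45 of 45 tumors. Pf4 was at 2197 CPM against 632 CPM and higher in all 45, though cluster 9 had 3079 CPM. Ccl8 was lower in 37 and Ccl12 in 41 tumors. The complement genes C1qa, C1qb and C1qc had mean ratios near 1 (log2 -0.05 to 0.05) but were lower than in the other macrophages of the same tumor in 38 to 40 tumors; cluster 26, with 17007 cells, had the highest level of each.

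Antigen presentation and interferon gamma genes lay below those of most other clusters. All 7 MHC class II genes were lower in 45 of 45 tumors. H2-Aa was 292, 1684 and 4618 CPM in cluster 27 against 1291, 3987 and 8205 CPM, with overlap between tumors. Ciita, the factor that drives class II genes, was at 13.9 CPM against a mean of 61.9 CPM. Cxcl9, a T cell attractant induced by interferon gamma, was 13.8, 125 and 1023 CPM against 197, 920 and 2857 CPM. Psmb10, an immunoproteasome subunit, was lower in all 45 tumors, and 8 of the 10 interferon gamma signature genes at 10 CPM or more were lower in at least 75%. Cd274 (PD-L1) went the other way, at 230.5 CPM against a mean of 150.1 CPM and higher in 39 tumors. Of 13 type I interferon genes 11 were lower in at least 75% of tumors, but the comparison is weighted by cluster 21 (10155 CPM summed over the list) and cluster 4 (2288 CPM). Cluster 27 had 765 CPM and the 7 remaining clusters 333 to 1073 CPM, and at equal depth the mean was 0.846 such UMIs per 1000 in cluster 27 and 0.845 in cluster 26. On the summed class II list cluster 27 ranked eighth of 10, at 9393 CPM, with the others from 1986 to 29263 CPM.

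Of 12 monocyte genes 11 were lower than in the other macrophages in at least 75% of tumors. The list summed to 839 CPM, which was above clusters 26 (552 CPM), 17 (500.2 CPM) and 15 (199 CPM), while cluster 4 had 7894 CPM. The 11 included the chemokine receptor Ccr2 (152 against 405 CPM), Plac8 (240.2 against 802 CPM) and Ly6c2 (151 against 474 CPM). F10 was higher in 42. The resident-like list summed to 3461 CPM, second to cluster 9 (8799 CPM), and its sum was higher in 45 of 45 tumors. Of its 10 genes at 10 CPM or more, 3 were higher and 2 lower in at least 75% of tumors, with a median log2 ratio of -0.50. Of the cycling genes, 13 of 14 of S phase and 19 of 19 of G2 and M phase were lower in at least 75% of tumors. Cluster 17 carries much of that comparison, with 5692 CPM summed over G2 and M genes; cluster 27 had 653 CPM, near clusters 2 (614 CPM) and 5 (579.7 CPM) and below cluster 26 (1496 CPM). Summed over S phase genes it had 309 CPM, below clusters 2 (383 CPM), 5 (441 CPM) and 26 (654 CPM). Of 11 cholesterol synthesis genes 9 were lower, and their sum of 155 CPM was below that of each other macrophage cluster, which had 183 to 428 CPM. The nearest clusters by correlation of log2 CPM over 9673 genes were 2 (r = 0.949), 26 (r = 0.935) and 5 (r = 0.927); the profiles share libraries and strongly expressed genes.

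**Figure D2:**
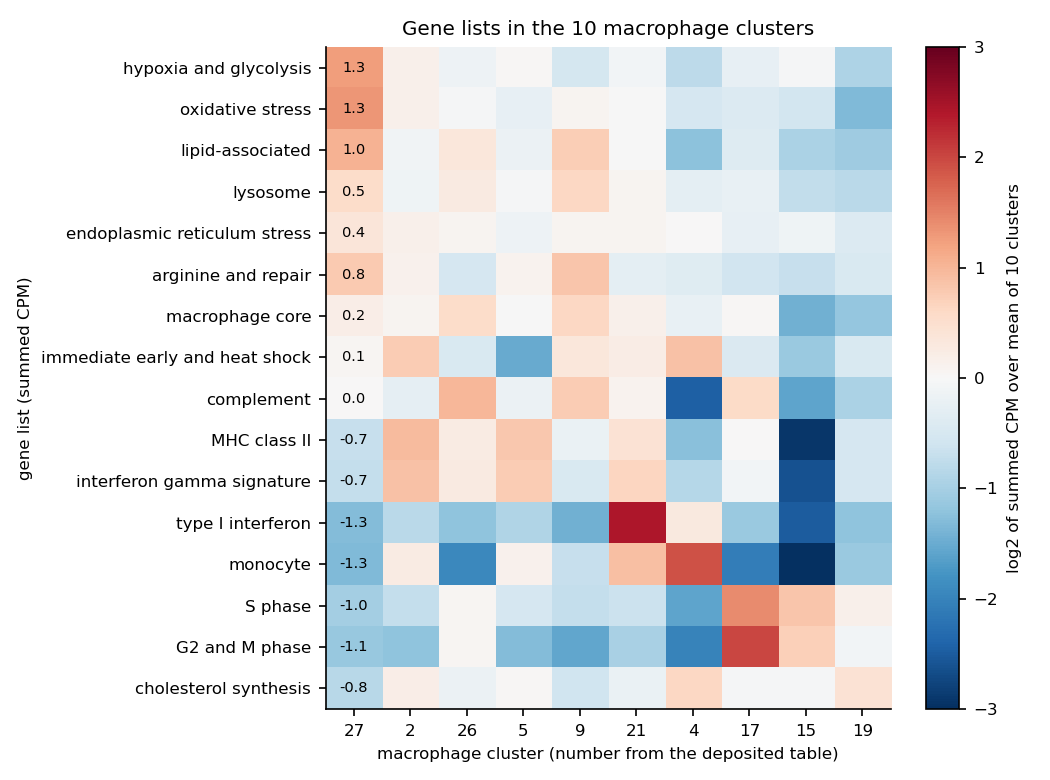
Colour gives the log2 of the summed CPM of each gene list (rows) over the mean of the 10 macrophage clusters (columns), with the values for cluster 27 printed. Cluster 27 is highest for hypoxia and glycolysis, oxidative stress and lipid-associated genes, at 15682, 42294 and 17686 CPM, and below the mean for MHC class II, interferon, monocyte and cycling genes.

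Cells were then compared at equal depth, by drawing 1000 UMIs from each cell. Of the cells of cluster 27, 3970 had enough UMIs and 145 were left out. A Gpnmb UMI was found in 12.1% of them (22.6% before thinning), against 0.352% of cluster 2 and 0.103% of T and NK cells. A Mmp12 UMI was in 33.7% (45.7% before), against 8.02% and 0.340%, and a Bnip3 UMI in 45.9% (76.9% before), against 13.1% and 2.93%. Most cells of the cluster thus had no Gpnmb UMI even without thinning, which at this depth does not show that they lack the RNA. For H2-Aa the shares were 42.4% (55.1% before), 79.96% in cluster 2 and 6.47% in T and NK cells.

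The sum of the 17 hypoxia and glycolysis genes was less uneven. It came to 15 UMIs per 1000 at the median of cluster 27, with 7 and 26 at the 10th and 90th percentile, against 5, 1 and 12 in the other 9 clusters. Of the cells of cluster 27, 93.2% lay above the median of the others, as did 90.2% for oxidative stress genes, whose summed counts are mostly Fth1 and Ftl1, and 87.8% for lipid-associated genes. MHC class II genes gave a median of 3 UMIs against 16, and 28.3% of cells had none against 13.1%. The low class II level was thus not shared evenly, since 10% of the cells had 26 or more such UMIs.

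**Figure D3:**
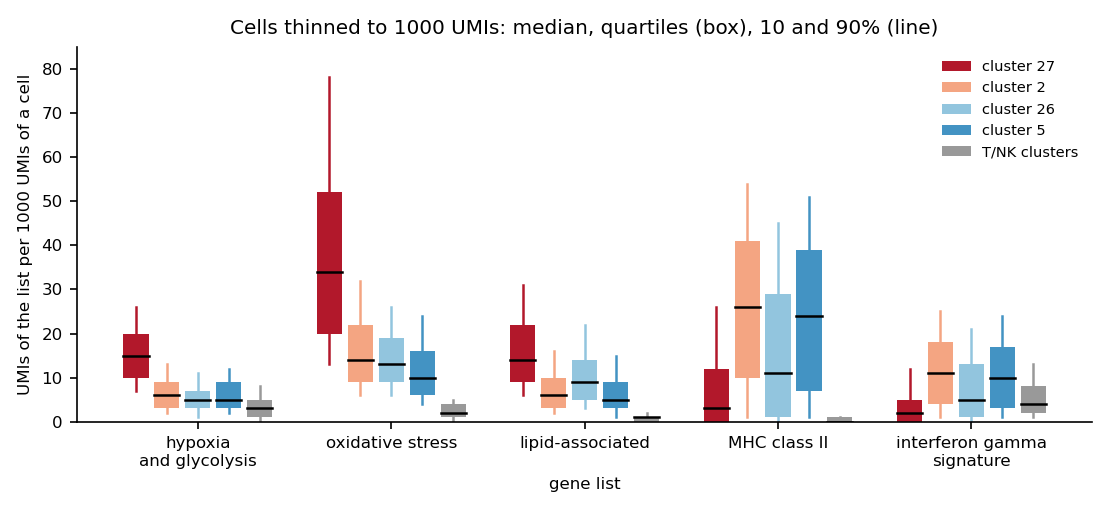
Bars span the quartiles, black lines give the median and thin lines the 10th to 90th percentile of UMIs of a gene list per 1000 UMIs of a cell, for cluster 27, its nearest clusters 2, 26 and 5, and T and NK cells. Cluster 27 has medians of 15 for hypoxia and glycolysis and 34 for oxidative stress (summed counts mostly of Fth1 and Ftl1), above the other groups, and 3 for MHC class II.

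Within the cluster the genes did not all mark the same cells. In the 1090 thinned cells with 20 or more hypoxia UMIs, oxidative stress genes (mostly Fth1 and Ftl1 in the summed counts) gave a mean of 51.5 UMIs, against 31.9 in the 1065 cells with 10 or fewer (r = 0.28 over 3970 cells, which share libraries). Lipid-associated genes gave 17.4 and 17.8 UMIs in the same groups, lysosome genes 13.03 and 15.4 and class II genes 7.43 and 8.72. Thinned cells with a Gpnmb UMI (480) had a Fabp5 UMI in 53.8% of cases, against 26.5% of cells without, and the share was higher in 35 of 38 tumors that had 5 or more cells of each kind. For Il7r it was 33.3% against 18.8% (32 of 38 tumors), while for C1qa it was 27.7% against 47.4% (higher in 6 of 38). Cells with an Arg1 UMI (2096) more often had a UMI of Hilpda (41.0% against 26.4%), Egln3 (20.2% against 10.4%) and Nos2 (10.1% against 3.74%). In cells with a Mmp12 UMI (1337) Mmp13 was seen in 11.2% against 2.01% (36 of 45 tumors). These shares are descriptions of cells within tumors and were not tested.

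The first comparison between conditions asked whether response class or aPD1 goes with the size of the cluster. Cluster 27 made up 4.58% ± 2.21 (SD, n = 10) of all cells in isotype and 4.27% ± 2.79 (n = 10) in aPD1 tumors of responder strains. In non-responder strains it made up 4.76% ± 1.99 (n = 9) and 4.79% ± 2.38 (n = 9). The lowest, median and highest tumor were 1.72, 4.89 and 7.72% and 2.16, 2.81 and 9.02% in responder strains, and 1.80, 3.94 and 7.01% and 1.69, 4.75 and 8.74% in non-responder strains. The 4 groups overlapped almost fully. Fewer cells of a cluster and fewer recovered from a frozen, sorted tumor cannot be told apart.

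Responder minus non-responder was -0.170 percentage points in isotype tumors (95% interval -2.25 to 1.90, exact permutation p = 0.860) and -0.521 in aPD1 tumors (-3 to 1.95, exact permutation p = 0.662). aPD1 minus isotype was -0.315 in responder strains (-2.65 to 2.10, permutation p = 0.777, higher in 6 of 10 pairs from the same library). In non-responder strains it was 0.0358 (-2.10 to 2.20, exact permutation p = 0.972, higher in 5 of 9 pairs). Between classes, these treatment differences were -0.350 apart (-3.35 to 2.55, exact permutation p = 0.809). After Benjamini-Hochberg adjustment over these 5 two-sided tests every p was 0.972. The intervals allow differences of about the size of the group SDs, so smaller differences were not detectable with these tumors. Within pools 1 to 5 and pools 8 to 12, class gave -0.345 and 0.188 in isotype and 0.0532 and -1.11 in aPD1 tumors. Of the classed strains, pools 1 to 5 held CC001 and CC002 against CC079 and CC080. Pools 8 to 12 held CC075 and CC036, fewer tumors of CC001, CC002 and CC080, and none of CC079. The pool sets thus differ in strains as well as libraries, which cannot be told apart.

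Strain means spread more widely than class means. They were highest in CC001 (6.08% ± 2.51, n = 8) and CC079 (5.81%, n = 6), 1 strain of each class, followed by CC036 (4.98%), CC007 (4.11%), CC075 (3.84%), CC080 (3.54%), CC002 (2.81%) and B6 (2.36% ± 1.11, n = 6). Strain took up 35.1% of the variance over 48 tumors. A permutation test over the 8 strains, chosen after these values were seen, gave p = 0.0121, and 0.0725 when adjusted with the other 5 share tests, so it did not pass. The permutation test with strain labels permuted within libraries gave p = 0.0205, and with the share of macrophages p = 0.0276. Neighbours in this order lay within 1 SD of each other.

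**Figure D4:**
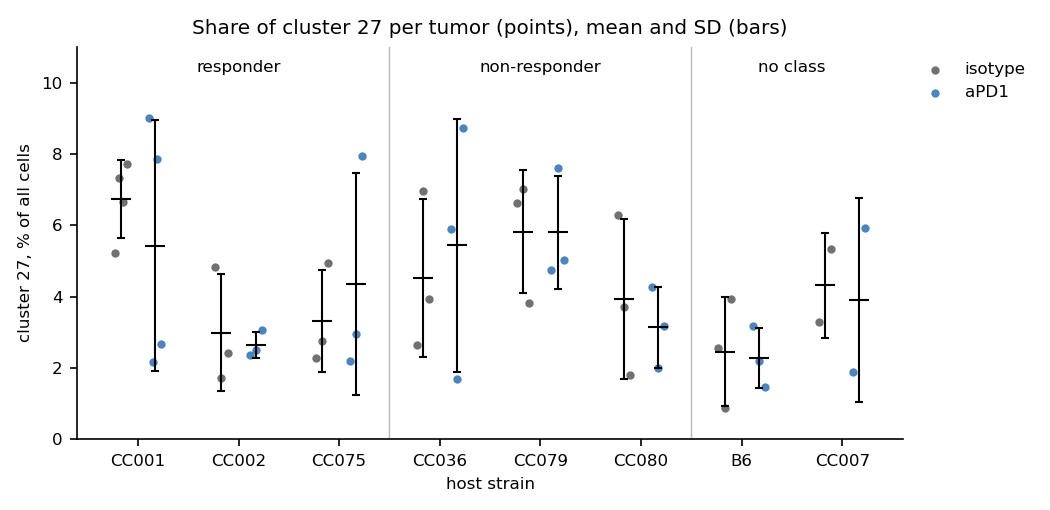
Points give the share of cluster 27 among all cells (y axis, percent) in each of 48 tumors by host strain and treatment, with mean and SD as black bars. Tumors of CC001 and CC079, of opposite class, have the highest strain means, 6.08 and 5.81%, and B6 the lowest, 2.36%.

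Genes of cluster 27 were then compared between classes over 19 responder and 18 non-responder tumors with 20 or more of its cells. In edgeR's quasi-likelihood test 41 of 5371 genes (0.763%) had an adjusted p under 0.05, 26 higher (0.484%) and 15 lower (0.279%) in tumors of responder strains. Scaling by library size alone gave 19 higher and 18 lower, so the split by direction depends on the scaling. With pools as blocks 70 genes passed, 37 of them shared. The count was 122 without CC075, 70 without CC080, and 8 in pools 8 to 12 alone against 43 in pools 1 to 5. Of the 41 genes, 23 lost their call without CC001, 20 without CC079, 20 in pools 1 to 5 alone and 34 in pools 8 to 12 alone. The pool sets hold different strains, so a change between them can be one of strain or of library. For 31 of the 41 genes all strain means of one class lay on one side of those of the other. The 41 were picked by their class difference in these same tumors, and the share over all 5371 genes was not computed. The count is thus a description and no measure of agreement between strains. Tumors of 1 strain are not independent animals of a class, and an exact test over 3 against 3 strain means cannot go below p = 0.10.

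None of the 20 leading genes and none of the 17 hypoxia and glycolysis, 14 lipid-associated, 15 lysosome or 10 oxidative stress genes tested passed between classes in the fit without blocks, where 0.763% of all genes did; at that share a count of 0 says little about lists of this size. With pools as blocks, Ndrg1 of the hypoxia list passed (0.49, adjusted p = 0.0370 in edgeR), as it did without CC002 (0.80, adjusted p = 0.00783). Fabp5 (0.73), Apoe (0.71), Ctsz (0.40), Ctss (0.40) and Grn (0.32) passed without CC075, Spp1 (-1.03) without CC001, Abcg1 (0.63) without CC080 and Psap (0.27) in DESeq2. Gpnmb had a median of 186 CPM in responder and 117.5 CPM in non-responder strains (log2 difference 0.46, adjusted p = 0.613 in edgeR). Bnip3 had 684 and 697 CPM (0.03, adjusted p = 0.989), and Arg1 2118 and 3240 CPM (-0.52, adjusted p = 0.484). Summed over a tumor, the hypoxia and glycolysis list had medians of 14319, 14743, 15591 and 15282 CPM in responder isotype, responder aPD1, non-responder isotype and non-responder aPD1 tumors. Their ranges overlapped, from 11036 to 18664 CPM over all 4 groups.

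The list with most genes past the threshold was MHC class II. Of 7 MHC class II genes 4 were higher in responder strains, against 0.484% of all genes tested, and all 7 differences were above 0 with a median of 1.03 (log2), against a median of -0.00077 over all genes tested. A one-sided shift was not particular to class II. Differences were above 0 for 9 of 9 interferon gamma signature genes (0.92), which include H2-Aa and H2-Eb1, and for 10 of 10 type I interferon genes (0.41). Monocyte genes were below 0 for 6 of 7 (-0.24). H2-Eb1, a class II beta chain (chromosome 17, 34305867 to 34316674), was 893, 2055 and 3925 CPM at the lowest, median and highest responder tumor and 122, 565 and 2175 CPM in non-responder tumors. The difference was 1.70 ± 0.27 (log2, SE; adjusted p = 1.12e-04 in edgeR), and 8 of 19 responder tumors exceeded the highest non-responder tumor. Strain means ran from 1643 to 2375 CPM and from 407 to 957 CPM. H2-Ab1, H2-DMb1 and Cd74, the invariant chain, were higher by 1.19, 1.03 and 0.98. None of these 3 passed without CC001 (0.99, 0.60 and 0.78), without CC079 (0.90, 0.82 and 0.76) or in pools 8 to 12 (0.76, 0.69 and 0.64). H2-Aa had a difference of 1.02 that did not pass (adjusted p = 0.0540), nor did H2-DMa and Ciita (0.53 and 1.06). H2-Aa passed in DESeq2 (adjusted p = 0.0190), without a filter (0.00779), without CC075 (0.0171), CC036 (0.0478) or CC080 (0.0113) and in pools 1 to 5 alone (0.0422). H2-DMa passed without CC075 (log2 0.70) and Ciita without CC080 (log2 1.72). Within pools 1 to 5 the H2-Eb1 difference was 2.23. Within pools 8 to 12, where most tumors are of other strains, it was 1.06 and did not pass (adjusted p = 0.466). H2 haplotypes differ between these strains while all reads were aligned to the same reference genome, so levels of these H2 genes are uncertain. The part of this in the class II differences was not tested.

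H2-Q7 (0.93) and, on the interferon gamma list, H2-T23 (0.92), which code for class I molecules, were also higher in responder strains. H2-Q7 had medians of 230.1 and 125.5 CPM, and 14 of 19 responder tumors exceeded the highest non-responder tumor. Within pools 1 to 5 its difference was 0.51 and did not pass (adjusted p = 0.151), and within pools 8 to 12 it was 1.48. H2-T23 passed in neither set of pools alone (0.91 and 0.97), nor without CC001 (0.74), CC036 (0.73) or CC079 (0.67). Reads were aligned to the C57BL/6J genome while H2 haplotypes differ between these strains and H2-Q genes resemble each other, so their values are uncertain; the part of this in the differences was not tested. Il18bp, an inhibitor of interleukin 18 that interferon gamma induces, was 9.22, 30.3 and 79.7 CPM against 4.47, 12.9 and 29.0 CPM (1.17, adjusted p = 0.00346 in edgeR). Il18bp did not pass without CC001 (1.05), without CC079 (0.93) or in pools 8 to 12 (0.88). Cxcl9 had medians of 147 and 49.8 CPM and did not pass (1.02, adjusted p = 0.282), but did with pools as blocks (1.44, adjusted p = 0.0296) and in pools 1 to 5 alone (1.83).

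Other genes higher in responder strains were Noc2l, a nucleolar protein (chromosome 4, 156236010 to 156247616), Selenom, a selenoprotein of the endoplasmic reticulum, the long RNA AW112010, and Acp5, an acid phosphatase of macrophages and osteoclasts. Noc2l was 57.1, 76.5 and 109.6 CPM in responder and 14.7, 42.1 and 65.8 CPM in non-responder tumors (0.80 ± 0.11, adjusted p = 2.06e-05 in edgeR), with 14 of 19 responder tumors above all others. Selenom had medians of 66.1 and 37.2 CPM (1.00), AW112010 492.6 and 199 CPM (1.38; adjusted p = 0.0636 in pools 8 to 12). Acp5 was 34.0, 91.1 and 313 CPM against 19.7, 47.6 and 84.96 CPM (1.27, adjusted p = 0.00306). Its strain means were 168 CPM in CC001, 79.6 in CC075 and 59.4 in CC002, against 44.7 to 50.8 CPM. Without CC001 the Acp5 difference was 0.53 and did not pass (adjusted p = 0.328), nor did it in pools 8 to 12 (0.96, adjusted p = 0.394). In other macrophages of the same tumors the Acp5 difference was 0.10 (adjusted p = 0.875), yet the difference between the cell sets did not pass (1.04, adjusted p = 0.195), except in pools 1 to 5 alone (1.67, adjusted p = 0.00179), without CC075 (1.27) and without CC036 (1.32). Ly6i was higher by 3.25 and Rps18 by 0.72, and both have near copies in the genome, so reads can be split between copies. The part of this in their differences was not tested. Ly6i strain means were 431 CPM in CC001, 88.9 in CC075 and 21.2 in CC002, against 38.7 in CC036, 30.8 in CC080 and 12.8 in CC079, so CC002 lay below 2 non-responder strains. Without CC001 the Ly6i difference was 1.18 and did not pass (adjusted p = 0.189), and neither Ly6i (2.22) nor Rps18 (0.61) passed in pools 8 to 12.

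Among genes lower in responder strains, Folr2, a folate receptor of resident macrophages (chromosome 7, 101839988 to 101857194), was 0, 18.1 and 49.0 CPM in responder and 6.03, 64.7 and 204 CPM in non-responder tumors (-1.78 ± 0.28, adjusted p = 1.09e-04 in edgeR). Strain means were 18.2 to 21.4 CPM and 61.5 to 94.3 CPM. All 7 resident-like genes tested had differences below 0 (median -0.59), against 2694 of all 5371 genes tested (median -0.00077). Cbr2 (-1.31, adjusted p = 0.0815) and Mrc1 (-0.86, adjusted p = 0.0669) did not pass. Both passed in DESeq2 and without a filter, Cbr2 also with pools as blocks (-1.59) and without CC001 (-2.05), Mrc1 also without CC075 (-1.11), without CC080 (-1.10), in pools 1 to 5 alone (-0.96) and without both tumors of the same animal identifier (-0.95), and Maf without CC075 (-0.55). Fn1 (fibronectin) was 237, 880.3 and 1460.1 CPM against 250.3, 1880.1 and 3492 CPM (-1.13). Ltc4s, which makes leukotriene C4, had medians of 39.0 and 139 CPM (-1.80), App 477 and 715 CPM (-0.51), Pde4d 85.6 and 227 CPM (-1.29), Rhoc 76.2 and 141.5 CPM (-0.69) and Psd3 36.9 and 78.8 CPM (-0.91). All these differences passed in edgeR over all pools, with overlapping tumors. In pools 8 to 12 alone Folr2 (-1.32), Ltc4s (-0.54), Rhoc (-0.34), App (-0.55) and Psd3 (-0.90) did not pass, and in pools 1 to 5 alone Fn1 (-1.16), Pde4d (-1.05) and Psd3 (-0.91) did not, while Ltc4s was -2.88 there. Without CC001 neither Fn1 (-0.91), Ltc4s (-1.49), Pde4d (-0.78) nor Psd3 (-0.68) passed, and without CC079 neither Ltc4s (-1.17) nor Rhoc (-0.60). Rhoc did not pass without CC002 (-0.62) either, nor Pde4d without CC036 (adjusted p = 0.0521). For Pde4d, the non-responder strain CC080 (129 CPM) lay below the responder strain CC002 (184 CPM). Ly6c1 (-3.38), Gm6169 (-2.01) and Gm10260 (-6.80) were lower too. Ly6c1 was at 0 in the non-responder strain CC036, below the responder strains (1.16 to 6.81 CPM), so its difference came from CC079 (67.0 CPM) and CC080 (95.7 CPM). Gm6169 was likewise lower in CC036 (4.83 CPM) than in the responder strain CC075 (19.1 CPM), and did not pass without CC001 (-1.11), without CC002 (-1.88) or in pools 8 to 12 (0.34). Gm10260 was 0 to 29.3 CPM in responder and 294 to 1128 CPM in non-responder tumors. It resembles Rps18, and reads of the genes can be exchanged. The part of this in the Gm10260 difference was not tested.

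**Figure D5:**
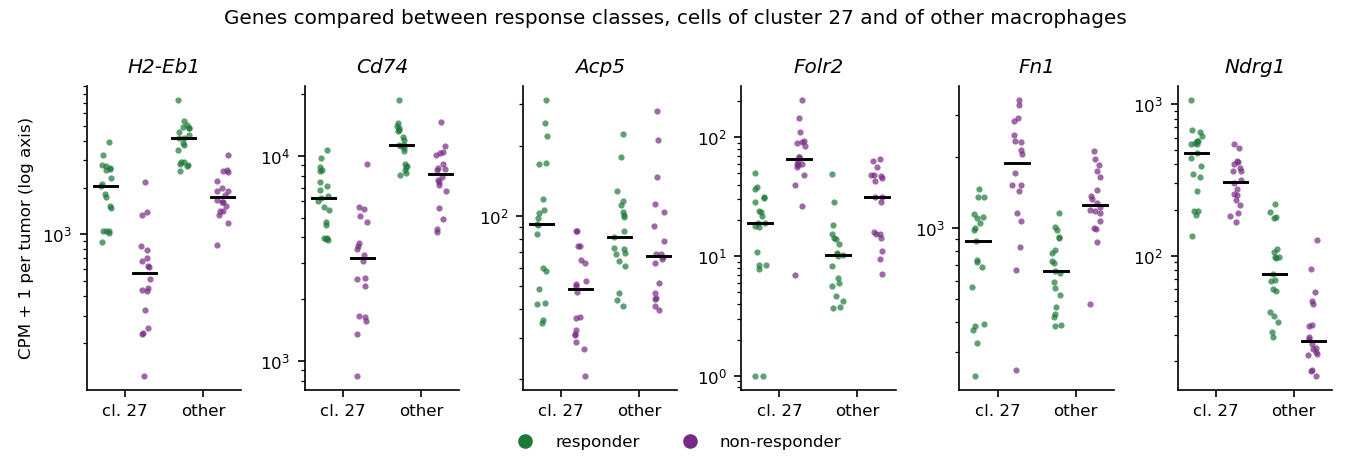
Points give the level of 6 genes in each of 37 tumors, as CPM + 1 on a log axis, in responder (green) and non-responder (purple) strains, for cluster 27 and for the other macrophages of the same tumors, with medians as bars. H2-Eb1 medians in cluster 27 are 2055 and 565 CPM, those of Folr2 are 18.1 and 64.7 CPM, and Ndrg1 medians are 475 and 306 CPM in cluster 27 against 74.7 and 26.1 CPM in the other macrophages.

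Many of these genes also differed in the other macrophages. Of the 41 genes, 33 also passed in the other macrophages of the same tumors, where 693 of 11770 genes (5.89%) passed, and all 41 had the same sign. Both sets come from the same animals, and the 41 were picked by their class difference in them. The share of the same sign over all genes tested was not computed, so that of the 41 has no background here. The class difference in cluster 27 was set against that in the other macrophages, with the tumor as a block. The clustering placed cells by their RNA, so for genes that lead or lack in the cluster, such as Ndrg1 and the class II genes, a change in this difference cannot be told apart from the choice of cells. Of 9072 genes 2 passed (0.022%), both with a lower difference in cluster 27, and 511 had an unadjusted p under 0.05. Ndrg1 had medians of 475 and 306 CPM (responder and non-responder) in cluster 27 and 74.7 and 26.1 CPM in other macrophages. Its class difference was 0.59 (adjusted p = 0.153; 0.0370 with pools as blocks) in cluster 27 and 1.42 (adjusted p = 0.00190) in the others, and the difference between them was -0.88 ± 0.16 (adjusted p = 0.00485 in edgeR). It did not pass without CC075 (-0.64, adjusted p = 0.0765), without CC079 (-0.84, adjusted p = 0.130), without CC080 (-0.81, adjusted p = 0.132) or in pools 8 to 12 alone (-0.85, adjusted p = 0.838).

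The second gene, Fat3, a cadherin (chromosome 9, 15910189 to 16501285), differed by -2.84 (adjusted p = 7.94e-07 in edgeR). Its mean in responder tumors was 13.2 CPM in cluster 27 and 23.98 CPM in other macrophages. Non-responder tumors had the opposite order, with means of 3.83 and 0.8997 CPM, so the value also draws on very low counts. In CC001 the Fat3 mean was 30.7 CPM in cluster 27 and 55.6 CPM in other macrophages, while all other strain means were at most 4.66 CPM. Without CC001 too few counts were left to test Fat3. The number of genes that passed was 14 without CC075, 12 in pools 1 to 5 alone and 0 in pools 8 to 12 alone (390 at an unadjusted p under 0.05). MHC class II genes had differences above 0 for 7 of 7 genes (median 0.60), none of which passed over all pools and strains. Over all 9072 genes 4324 were above 0 (median -0.010). Other lists were as uniform. Type I interferon genes were above 0 for 12 of 13 (median 0.31). Hypoxia and glycolysis genes were below 0 for 17 of 17 (median -0.20), G2 and M phase genes for 18 of 19 (-0.45) and checkpoint ligands for 9 of 9 (-0.12). In pools 1 to 5 alone H2-Aa (0.95), H2-Eb1 (0.92), H2-Ab1 (0.85) and Cd74 (0.80) passed, with adjusted p of 2.30e-04 at most in edgeR, and without CC075 H2-Aa (0.76), H2-Ab1 (0.74) and Cd74 (0.64) did. Outside class II, Acp5 (1.27), Cbr2 (-1.43), Psd3 (-1.04) and Ltc4s (-1.35) also passed without CC075. In pools 8 to 12 alone the H2-Eb1 value was 0.31 (adjusted p = 1.00).

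With aPD1, no gene of cluster 27 passed in edgeR (0 of 5371, 0%), with 144 at an unadjusted p under 0.05, and DESeq2 also gave 0. This fit, like that of the interaction below, held neither strain nor library, so spread between strains and libraries stayed in its error. No gene passed with pools as blocks either. A count of 0 therefore does not show that aPD1 left these genes unchanged. The lowest p were those of Olr1, an oxidised lipid receptor (1.31), Tmem134 (0.40) and Clec4e, a lectin receptor (0.56), above 0, and of Marc2 (-0.38), Wdr44 (-0.58) and Lpl, a lipase (-1.03), below 0, each with an adjusted p of 1.00. The interaction of class and treatment passed for 0 of 5371 genes (0%, 125 at an unadjusted p under 0.05), and DESeq2 gave 0. Among those of lowest p were Tifa (1.07), Xrcc4 (0.94), Tmem9b (-0.89), Ctsd (-0.85) and Cd93 (-0.74), with an adjusted p of 0.999. Interaction values lay above 0 for 2688 of all 5371 genes (median 0.00070). They did for 9 of 9 interferon gamma signature genes (median 0.81), 7 of 7 class II genes (0.86) and 10 of 10 type I interferon genes (0.46). All 7 resident-like genes lay below 0 (-0.26). Other lists also leaned to one side. Hypoxia and glycolysis genes lay above 0 for 16 of 17 (0.11) and immediate early and heat shock genes for 13 of 15 (0.36). Lysosome genes lay below 0 for 12 of 15 (-0.16). For aPD1 against isotype, hypoxia and glycolysis genes were above 0 for 16 of 17 (median 0.098), against 2858 of all 5371 genes (0.011). Some lists share genes, and none of these genes passed. The summed MHC class II level of cluster 27 had medians of 10704 CPM in isotype and 15723 CPM in aPD1 tumors of responder strains, and of 6919 and 5603 CPM in non-responder strains. Ranges overlapped in both.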

How the data were processed

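RNA of single cells from 48 tumors was measured with 10x Genomics 5′ libraries, 4 hashtagged tumors in each of 12. Per the labels and the study's methods, the authors aligned reads to GRCm38 (GENCODE vM23) with Cell Ranger, processed cells with Seurat 5.0.1, left out cells of high mitochondrial or ribosomal share (highest left 14.99% and 44.99%), integrated processing dates with harmony and clustered the cells. The authors deposited whole-number UMI counts per gene (27457 listed) and cell, with library, strain, treatment, hashtag and cluster per cell; the dates are not given in the sources used here. Strain class was taken from the study. Hashtag sequences were not used here, and no column of another series was present.

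Here the tumor (library, strain and treatment) was the replicate, and no source says whether the spread between tumors of a strain holds more than animals; 1 animal identifier stands on 2 CC080 tumors, which were kept. Counts were summed per tumor over the cells of cluster 27 and over the other 9 macrophage clusters (numbers 2, 4, 5, 9, 15, 17, 19, 21 and 26) and scaled to 1000000 (CPM). Ratios are of CPM + 1. Tumors with 20 or more cells of the cluster entered gene comparisons. edgeR 4.0.16 (R 4.3.3; filterByExpr, TMM scaling, quasi-likelihood test, Benjamini-Hochberg over all genes tested) fitted class and treatment in 1 model. The class difference between cell sets had the tumor as a block. DESeq2 1.42.0 was an alternative. Shares were compared by exact two-sided permutation tests, or 100000 resamples where both groups held 10 tumors, and intervals of 95% inverted these tests (scipy 1.17.1). Both procedures were tested on simulated data. The simulated tumors were independent and had no strain effect, so these trials do not show the error rates of the class contrast. Cells were thinned at random to 1000 UMIs for shares of cells with a UMI. Gene positions are from GENCODE M21, on the same GRCm38 build.

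Isotype and aPD1 tumors of a strain share a library by label, so pools pair them; their shares deviated from the group means with r = 0.172 over 19 pairs. Named genes were the 20 of largest ratio among those of at least 50 CPM and higher in at least 75% of tumors, the 10 of smallest ratio, up to 10 higher and 10 lower of lowest p among genes past an adjusted p of 0.05, the 3 of lowest p in each direction where none passed, and members of the lists. 1 gene that the rule names is not reported here. Alternatives were another denominator, scaling, filter, minimum of cells and reference clusters, leaving out strains, tumors or pools, and pools as blocks. Cluster, lists and rules were chosen with earlier results of these data known. Free RNA was read from T and NK cells. Intervals cover counting and tumor spread only.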

Additional observations from a re-analysis of the deposited data

Results flagged for a closer look

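In 122 groups of 4 to 10 tumors, 14 held a tumor far from the rest by Dixon's test at the 95% level. For normally distributed values chance flags about 1 in 20 groups, which is 6.1 here. The test was run on CPM without a log, and all flags but 1 of Noc2l were highest values. The number expected by chance for such values was not measured, so an excess is not shown. The values below are CPM in cluster 27. Noc2l was highest among responder aPD1 tumors in the CC001 tumor of pool 2 (109.6, next 83.8) and lowest among non-responder isotype tumors in the CC036 tumor of pool 8 (14.7, next 38.5). Acp5 was also highest in the CC001 aPD1 tumor of pool 2 (249, next 102). Pde4d was highest among non-responder isotype tumors in the same CC036 tumor of pool 8 (808, next 369), which had 22 cells of the cluster. Ly6i stood out in the CC036 aPD1 tumor of pool 10 (71.1, next 36.0), Psd3 in the CC075 aPD1 tumor of pool 11 (66.7, next 39.1) and Rhoc in the CC080 aPD1 tumor of pool 4 (282, next 174).

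Among genes that lead the cluster, Gpnmb was highest among non-responder aPD1 tumors in the CC080 tumor of pool 11 (701, next 313). Hmox1 was highest among non-responder isotype tumors in the CC079 tumor of pool 1 (4115, next 1824) and among non-responder aPD1 tumors in the CC036 tumor of pool 8 (3049, next 1606). Folr2 was highest among non-responder isotype tumors in that CC079 tumor of pool 1 (204, next 91.6). Ndrg1 was highest among responder aPD1 tumors in the CC075 tumor of pool 9 (1065, next 611). Fat3 was highest among responder isotype tumors in the CC001 tumor of pool 4 (79.8, next 33.5) and among non-responder isotype tumors in the CC079 tumor of pool 2 (17.5, next 8.64).

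The class difference was another one in cluster 27 than in the other macrophages of the same tumors for Fat3 (-2.84, log2) and Ndrg1 (-0.88), by the test of the difference itself over 37 tumors. Ndrg1 is among the genes that lead the cluster, so its value cannot be told apart from the choice of cells by their RNA.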

How the results depend on the processing

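Share differences, in percentage points, were small enough to change sign. Responder minus non-responder in isotype tumors became 0.0703 without tumors of under 500 cells, 0.188 in pools 8 to 12, 0.0215 without both tumors of the same animal identifier, 0.514 without CC002, 0.370 without CC075 and 0.362 without CC079. In aPD1 tumors it became 0.0532 in pools 1 to 5 and 0.178 without CC002. aPD1 minus isotype became 0.345 without CC001 in responder strains, and -0.845 of macrophages, -0.763 in pools 1 to 5 and -0.410 without CC036 in non-responder strains. The difference of treatment effects became 0.503 of macrophages, 0.398 in pools 1 to 5, 0.309 without CC001 and 0.0953 without CC036. With pools as blocks the class differences were -0.556 (exact permutation p = 0.570) and -0.0296 and the treatment differences -0.315 and 0.0358, and no share test passed its threshold under any alternative run. The number of genes past the threshold between classes (41) was 72 in DESeq2, 106 without a filter, 70 with pools as blocks, 122 without CC075, 70 without CC080 and 8 in pools 8 to 12, and between 33 and 53 under the rest. Without a filter 1 gene passed for aPD1. For the class difference between cell sets (2 genes) it was 14 without CC075, 4 without CC036, 1 without CC079, 1 without CC080, 12 in pools 1 to 5 and 0 in pools 8 to 12. Gm6169 was 0.34 in pools 8 to 12. Pool subsets, shared identifiers and strains left out of the cell-set comparison were chosen after seeing the data. The causes were not tested. Genes of few counts in sums of 22 to 242 cells limit what could be detected.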
